A study of Mus musculus with 3 samples.

Results

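Lambda light-chain B cells are the B cells of blood whose lambda constant-gene RNA outnumbers their kappa constant-gene RNA. They were picked from the peripheral blood mononuclear cells of C57BL/6 mice by their counts of unique molecular identifiers (UMIs, each marking 1 captured RNA molecule). Every member had no fewer than 500 UMIs and 250 genes, with mitochondrial genes taking no more than 10% of its UMIs. It had at least 2 UMIs of Cd79a and 1 of Ms4a1, no UMI of Cd3d, Cd3e, Cd3g, Zbtb32 or Bhlhe41, and at most 4 of Jchain. The summed UMIs of Iglc1, Iglc2 and Iglc3 were above those of Igkc. This gave 717 lambda cells of 31064 cells that passed the first limits. They were 256 of 11713 cells in the aged+AA library, 339 of 10204 in the aged library and 122 of 9147 in the young library. Kappa cells, where Igkc was higher, numbered 3674, 3057 and 1725 in these libraries, and 12, 11 and 3 gated B cells were tied.

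Aged mice that received AA over 1 month gave the aged+AA library; the series title names ascorbic acid, for which AA is taken to stand. Aged and young mice that received PBS over the same time gave the aged and the young library. The labels give no ages in weeks and no number of mice per library, and each group is 1 library. Differences between libraries therefore have no replicate check and were not tested, and all intervals are 95% exact intervals that cover counting error only.

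Each B cell as a rule shows a single light-chain type on its surface, kappa or lambda. In the mouse the kappa locus is usually rearranged first, and lambda B cells, the minority, arise largely after kappa rearrangements that failed or gave a self-reactive receptor. The lambda locus of C57BL/6 is small: the variable segment Iglv1 is joined mainly with the constant genes Iglc1 and Iglc3, and Iglv2 and Iglv3 mainly with Iglc2. The kit used here reads the 3' ends of transcripts, where the constant gene lies.

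The lambda constant genes that defined the cells lie on the minus strand of chromosome 16 (GRCm38, GENCODE M21 annotation). The last 300 bases of each coding sequence, nearest to the 3' end that the kit reads, are shown because the split of UMIs between Iglc2 and Iglc3 depends on how alike they are. The stretch of Iglc1 is chr16:19061755-19062054, that of Iglc2 chr16:19198539-19198838 and that of Iglc3 chr16:19065368-19065667. Capitals mark the bases that differ from Iglc2 in Iglc1 and in Iglc3, and from Iglc3 in Iglc2, in a gapped alignment.
Iglc1: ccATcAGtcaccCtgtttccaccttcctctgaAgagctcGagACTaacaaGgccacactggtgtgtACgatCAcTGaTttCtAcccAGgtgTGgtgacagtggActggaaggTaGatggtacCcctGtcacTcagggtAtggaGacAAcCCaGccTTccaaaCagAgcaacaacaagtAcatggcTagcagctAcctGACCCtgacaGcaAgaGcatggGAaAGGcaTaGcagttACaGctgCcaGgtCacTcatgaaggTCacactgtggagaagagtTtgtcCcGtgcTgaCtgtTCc
Iglc2: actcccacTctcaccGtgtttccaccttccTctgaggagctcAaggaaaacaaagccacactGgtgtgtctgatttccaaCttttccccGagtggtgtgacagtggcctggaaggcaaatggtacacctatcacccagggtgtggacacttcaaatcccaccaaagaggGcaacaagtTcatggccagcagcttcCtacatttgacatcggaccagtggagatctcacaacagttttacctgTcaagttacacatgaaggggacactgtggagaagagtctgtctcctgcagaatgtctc
Iglc3: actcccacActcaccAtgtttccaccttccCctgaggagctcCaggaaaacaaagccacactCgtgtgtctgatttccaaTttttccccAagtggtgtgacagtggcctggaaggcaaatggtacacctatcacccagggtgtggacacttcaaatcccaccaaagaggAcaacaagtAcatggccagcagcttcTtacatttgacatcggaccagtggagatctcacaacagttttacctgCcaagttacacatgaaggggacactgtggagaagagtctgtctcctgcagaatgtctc
Over the whole coding sequence, Iglc2 and Iglc3 differed at 11 of 314 aligned bases (96.5% identity), with a shared run of 79 bases and 10.5% of the 50-base stretches of the Iglc2 transcript also found in Iglc3. Iglc1 was 74.8% identical to Iglc2 and 75.4% to Iglc3, and shared no 50-base stretch with either. Reads can thus tell Iglc1 from Iglc2 and Iglc3, while the division between Iglc2 and Iglc3 is uncertain. Iglv1 and Iglv2 were likewise close, at 96.9% identity, and 22.2% of the 50-base stretches of Iglv1 were also in Iglv2.

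The libraries held 80424480 UMIs (aged+AA), 94944551 UMIs (aged) and 64496639 UMIs (young). Lambda cells had median depths of 3477, 3055 and 3800 UMIs in that order, and kappa cells 3598, 3168 and 3436. The libraries stood apart in 2 measures that recur below. Haemoglobin genes took 2.64% of the lambda cells' UMIs in the aged+AA library, 11.9% in the aged library and 3.81% in the young library. Mitochondrial genes took 4.78%, 3.20% and 5.74%. More than 5% haemoglobin UMIs were found in 5 aged+AA, 35 aged and 2 young lambda cells, and predicted doublets numbered 1, 5 and 0. No lambda barcode was shared between libraries, against 27 to 33 shared barcodes per pair among all passing cells and 0 to 5 among gated B cells.

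The B identity of the cells was clear in genes outside the rule, given as CPM, the UMIs of a gene scaled by all UMIs of the class in that library. Cd79b, the partner of Cd79a in the receptor, had 1651 CPM in aged+AA, 1444 CPM in aged and 1568 CPM in young lambda cells. Ebf1, a factor of the B lineage, had 1874, 1623 and 1944 CPM, and Pax5, another, had 255, 328 and 208 CPM in the same order. All 25 genes of the B identity list were detected in each library. Marker RNA of other cells was also present, unequally. The 4 neutrophil markers summed to 1014 CPM in aged+AA, 1469 CPM in aged and 3.71 CPM in young lambda cells, with 2 of them at 0 in young cells. The 6 monocyte markers summed to 42.5, 733 and 27.8 CPM, the 5 NK markers to 87.1, 326 and 7.41 CPM, and the 9 T markers to 44.6, 36.2 and 22.2 CPM, the Cd3 genes being 0 by rule. Of the 3 platelet markers, 1, 4 and 0 UMIs were counted.

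Lambda cells made up a larger share of the B cells in the aged library than in either other library. Of the lambda and kappa cells together, lambda cells were 6.51% (5.76 to 7.33%) in the aged+AA library, 9.98% (8.99 to 11.0%) in the aged library and 6.61% (5.52 to 7.84%) in the young library. The aged share was highest, and its interval did not overlap the others. The ratio of shares was 0.653 (0.553 to 0.770) for aged+AA over aged, 0.986 (0.792 to 1.23) for aged+AA over young and 1.51 (1.23 to 1.87) for aged over young. In kappa cells per lambda cell this was 14.4 (aged+AA), 9.02 (aged) and 14.1 (young).

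Among all passing cells the lambda share was 2.19% (1.93 to 2.47%) in aged+AA, 3.32% (2.98 to 3.69%) in aged and 1.33% (1.11 to 1.59%) in young cells. The aged+AA over aged ratio of that share was 0.658 (0.557 to 0.776), against 1.05 (0.998 to 1.10) for kappa cells. The aged over young ratio was 2.49 (2.02 to 3.09), against 1.59 (1.5 to 1.69) for kappa cells, since all gated B cells held 33.4% of the aged and 20.2% of the young cells. Lambda cells thus held a smaller share of the aged+AA library than of the aged one, and kappa cells a like share of both. Haemoglobin and mitochondrial shares moved with these libraries. With at most 5% haemoglobin UMIs and few UMIs of other cells' markers the lambda share of B cells was 6.63% in aged+AA, 10.1% in aged and 6.70% in young cells. With at most 5% mitochondrial UMIs it was 6.11%, 9.92% and 5.52%, the young value then resting on 28 lambda cells.

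**Figure D1:**
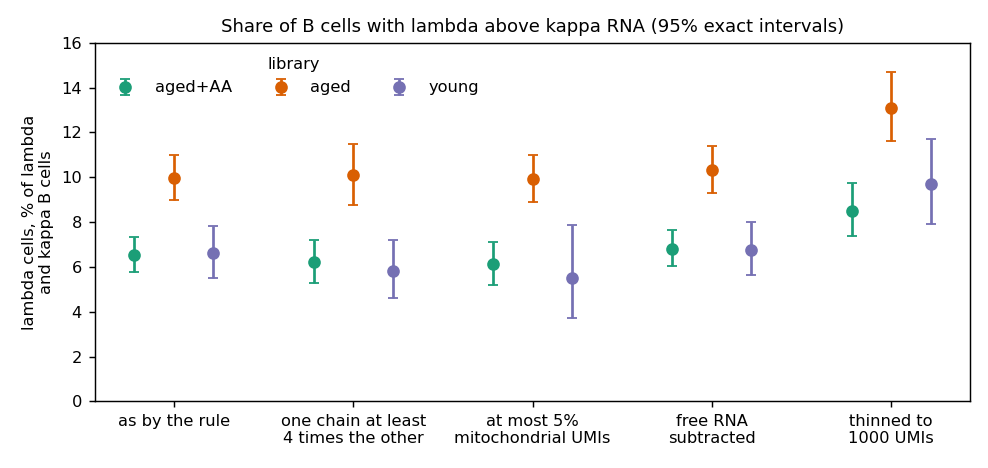
Lambda cells as a percentage of lambda and kappa B cells (y axis) in the aged+AA, aged and young libraries, under the rule and 4 other settings (x axis). Points are shares and bars are 95% exact binomial intervals for counting error; the aged library was highest in each setting, at 9.98% under the rule, and thinning to 1000 UMIs moved all 3 shares up.

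The cells chosen by the rule were not all alike in their light-chain RNA; the values in this and the next paragraph describe the rule's own genes and carry no test. Summed Iglc UMIs per lambda cell had a median of 36 in aged+AA (range 4 to 128), 29 in aged (4 to 181) and 32.5 in young cells (3 to 183). Igkc in the same cells had medians of 2, 5 and 3 UMIs, and was 0 in 70 aged+AA, 78 aged and 44 young lambda cells (27.3%, 23.0% and 36.1%). Lambda genes held at least 90% of the light-chain UMIs in 136 aged+AA, 149 aged and 63 young lambda cells (53.1%, 44.0% and 51.6%). A second part lay just above the limit, with 50 to 60% in 43, 63 and 13 cells (16.8%, 18.6% and 10.7%).

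At the limit itself, 26 aged+AA, 42 aged and 10 young cells were 1 to 3 UMIs inside it, with median Iglc sums of 13, 12.5 and 19 and median Igkc of 11, 11 and 16.5. Another 62, 79 and 24 cells were 1 to 3 UMIs outside it. Cells whose Iglc sum was at least 4 times their Igkc made up 4.10% (3.50 to 4.76%) of the aged+AA, 5.68% (4.93 to 6.52%) of the aged and 4.17% (3.30 to 5.18%) of the young lambda and kappa cells. Lambda cells under that ratio made up 2.42%, 4.30% and 2.44%. Kappa cells were spread in the same way: those with Igkc at least 4 times their Iglc sum were 62.0%, 50.7% and 67.7%, fewest in the aged library. Both the clear and the mixed lambda cells were more frequent in the aged library, with aged+AA over aged ratios of 0.721 (0.581 to 0.893) and 0.562 (0.430 to 0.733), and aged over young ratios of 1.36 (1.04 to 1.80) and 1.76 (1.26 to 2.52).

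**Figure D2:**
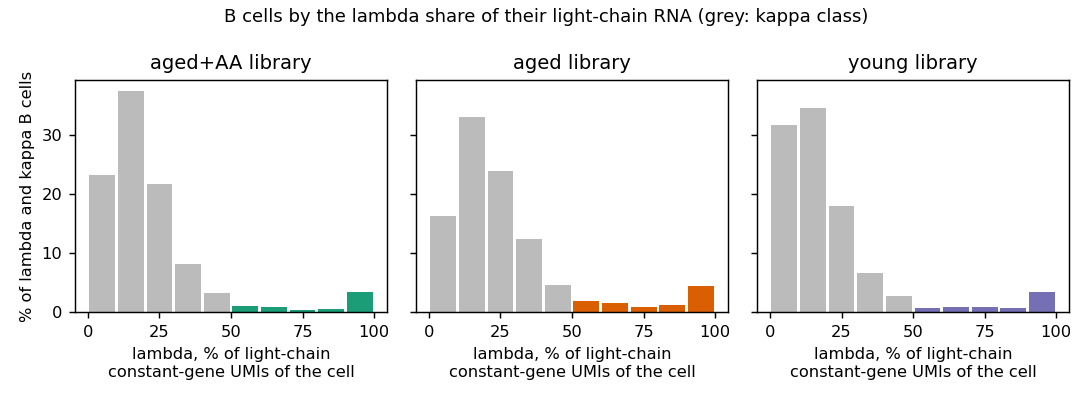
Lambda share of each B cell's Iglc1, Iglc2, Iglc3 and Igkc UMIs (x axis, bins of 10%) against the percentage of lambda and kappa B cells (y axis), in a panel per library. Grey bars are kappa cells and coloured bars lambda cells; a separate peak at 90 to 100% lambda held 3.46% of the aged+AA, 4.39% of the aged and 3.41% of the young cells, and the kappa peak lay further right in the aged library.

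Kappa cells carried lambda constant RNA too. Their summed Iglc UMIs had medians of 7 in aged+AA, 7 in aged and 6 in young cells, and were 0 in 26, 40 and 41 of them. T cells (at least 2 UMIs of Cd3e and none of Cd79a), which should lack both, averaged at most 0.201 UMIs of any Iglc gene per cell. They averaged 1.38 (aged+AA), 0.701 (aged) and 0.0891 (young) UMIs of Igkc, against means of 7.85, 9.04 and 8.49 in lambda cells. Over each whole class, lambda RNA in kappa cells and mean kappa RNA in lambda cells were above the level in T cells. The T cells were deeper, with medians of 6052, 5349 and 5383 UMIs, and those with any Cd79a UMI were left out. In lambda cells with Iglc at least 4 times Igkc, median Igkc was only 1, 1 and 0 UMIs. In the other lambda cells it was 15, 14 and 16 UMIs. Subtracting the light-chain RNA estimated from free RNA gave lambda shares of 6.82%, 10.3% and 6.76%.

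The division of lambda RNA among Iglc1, Iglc2 and Iglc3 differed between kappa and lambda cells. These are genes of the rule, and the values carry no test. Iglc1, the gene that reads separate cleanly, took 36.9% of the Iglc UMIs in aged+AA, 40.1% in aged and 37.8% in young lambda cells. In kappa cells it took 10.2%, 13.1% and 11.3%. The Iglc1 share also moved with the ratio that sorts the cells. Kappa cells with Igkc at least 4 times Iglc had 6.43%, 9.32% and 8.28%, and other kappa cells 13.9%, 15.3% and 14.6%. Lambda cells with Iglc at least 4 times Igkc had 37.7%, 42.8% and 39.4%, and other lambda cells 35.2%, 35.6% and 34.8%. Iglc2 took 50.1%, 48.7% and 51.7% in lambda cells and 57.0%, 53.5% and 61.6% in kappa cells. Iglc3 took 13.0%, 11.2% and 10.5% in lambda cells and 32.7%, 33.4% and 27.1% in kappa cells. In each library the Iglc1 share was far higher in lambda than in kappa cells, and the libraries differed little within either class. Iglc4, a further constant gene of the locus, had 2, 9 and 1 UMIs in lambda cells.

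**Figure D3:**
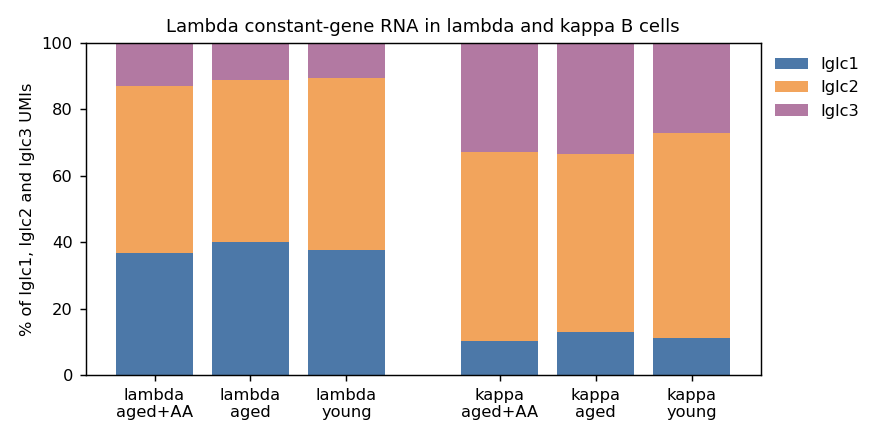
Division of the Iglc1, Iglc2 and Iglc3 UMIs (y axis, percent) in lambda cells (left) and kappa cells (right) of the aged+AA, aged and young libraries. Iglc1 took 36.9 to 40.1% in lambda cells and 10.2 to 13.1% in kappa cells; the split between Iglc2 and Iglc3 is uncertain because the genes are near-identical.

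The leading constant gene is the one with the most UMIs, so each lambda cell has one unless the top counts tie. It held at least 90% of the cell's Iglc UMIs in 17, 22 and 7 cells led by Iglc1 (aged+AA, aged, young). Cells led by Iglc2 included 30, 30 and 20 of this kind, and cells led by Iglc3 included 3, 2 and 1. Iglc1 had the most UMIs in 104 of 256 aged+AA lambda cells (40.6%, 34.6 to 46.9%), 139 of 339 aged (41.0%, 35.7 to 46.4%) and 52 of 122 young cells (42.6%, 33.7 to 51.9%). Iglc2 led in 48.0%, 51.0% and 49.2%, and Iglc3 in 8.98%, 5.90% and 6.56%. These shares differed between libraries by less than their counting error. Among aged cells with Iglc at least 4 times Igkc, Iglc1 led in 48.7% (41.5 to 56.0%).

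Variable segments were rarely captured, and since they lie on the same transcripts as the rule's genes they are described without weight on their test. The 3 Iglv segments had 39 UMIs (39.5 CPM) in aged+AA, 73 (56.2 CPM) in aged and 50 (92.7 CPM) in young lambda cells. In kappa cells they had 11.2, 12.3 and 15.5 CPM. The Igkv segments showed the opposite, with 27.3, 39.3 and 42.6 CPM in lambda cells and 76.0, 96.4 and 149 CPM in kappa cells. Over the 3 libraries, Iglv1 was seen in 58 of 295 cells led by Iglc1 (19.7%), 17 of 356 led by Iglc2 (4.78%) and 5 of 51 led by Iglc3 (9.80%). Iglv2 was seen in 6 cells led by Iglc1 (2.03%), 16 led by Iglc2 (4.49%) and none led by Iglc3. Iglv3 was seen in 9 cells led by Iglc1 (3.05%), 25 led by Iglc2 (7.02%) and 4 led by Iglc3 (7.84%). Iglv1 was found in cells led by Iglc1 in 11.5% of aged+AA, 18.7% of aged and 38.5% of young cells, always more often than in cells led by Iglc2 (3.25%, 4.62% and 8.33%).

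The heavy chain of lambda cells was almost always unswitched. A switched constant gene outnumbered Ighm and Ighd in 1 aged+AA, 2 aged and 1 young lambda cell, or 0.391% (0.00989 to 2.16%), 0.590% (0.0715 to 2.11%) and 0.820% (0.0208 to 4.48%). In kappa cells these shares were 0.490%, 0.491% and 0.174%. Differences of this size could not be detected with so few lambda cells. Ighm, the mu heavy chain, had 2988 CPM in aged+AA, 3265 CPM in aged and 2829 CPM in young lambda cells, against 2477, 2689 and 2494 CPM in kappa cells. It was higher in lambda cells of every library. Ighd, the delta heavy chain, had 917, 885 and 688 CPM in lambda and 809, 893 and 717 CPM in kappa cells, with no common direction. Ighm UMIs per Ighd UMI were 3.26, 3.69 and 4.11 in lambda and 3.06, 3.01 and 3.48 in kappa cells.

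Lambda and kappa cells of the same library were otherwise close to each other. For each class in each library the counts were added up and compared with edgeR's quasi-likelihood test with the library as a block, so that the 3 libraries were the replicates. Of 9638 genes tested, 30 (0.311%) passed an adjusted p of 0.05, 13 higher (0.135%) and 17 lower (0.176%) in lambda cells, and 629 had an unadjusted p below 0.05. The called genes included 4 of the rule (Iglc1, Iglc2, Iglc3 and Igkc) and 2 segments (Iglv1 and Iglv2). The other 24 genes, 8 higher and 16 lower, are described here. Without the block none of these 24 passed (edgeR adjusted p = 0.0888 for Gm30211). Of the 26 called genes outside the rule, 12 remained without the young library, 12 without the aged library and 22 without the aged+AA library.

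Genes of the antigen receptor were among those higher in lambda cells. Cd79b, whose protein signals for the receptor, had 1651, 1444 and 1568 CPM in lambda cells and 1324, 1203 and 1238 CPM in kappa cells of the aged+AA, aged and young libraries. The groups did not overlap, and the log2 fold change was 0.29 (SE 0.0387, edgeR adjusted p = 1.79e-05). Ighm rose by 0.22 on the log2 scale (SE 0.0320, adjusted p = 4.59e-05 by edgeR). Both passed whichever library was left out, but not among cells with at most 5% mitochondrial UMIs (adjusted p = 0.762 for Cd79b and 0.775 for Ighm, edgeR), where 28 young lambda cells were left. The other receptor partner, Cd79a, was part of the rule and is given only as a level, 4199, 3309 and 3509 CPM in lambda and 3925, 3068 and 3593 CPM in kappa cells. Of the 25 genes of the B identity and receptor list, Cd79b alone passed the test, and the median log2 fold change was 0.01, with 13 of 25 above 0.

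A few less abundant genes differed by more. Pafah1b3, a catalytic subunit of platelet-activating factor acetylhydrolase, had 98.2, 93.2 and 106 CPM in lambda cells (aged+AA, aged, young) and 62.3, 57.6 and 61.4 CPM in kappa cells. All 3 lambda values were above all kappa values, and the log2 fold change was 0.68 (SE 0.105, edgeR adjusted p = 0.000209). Akap12, a scaffold for protein kinase A, had 24.3, 25.4 and 27.8 CPM in lambda and 6.82, 11.6 and 11.3 CPM in kappa cells. Akap12 had the largest rise among the 8, at 1.37 on the log2 scale (SE 0.222, edgeR adjusted p = 0.000388). A single aged+AA lambda cell held 9 of the 24 Akap12 UMIs there. The most in 1 cell was 3 of 33 in aged and 3 of 15 in young lambda cells. After every cell was thinned to 1000 UMIs, Akap12 was seen in 2.73% of aged+AA, 2.66% of aged and 4.92% of young lambda cells. The shares were 0.600%, 0.951% and 1.10% in kappa cells and 0.0905%, 0.191% and 0.730% in T cells. Without thinning they were 5.08%, 7.37% and 7.38% in lambda, 2.31%, 3.89% and 3.88% in kappa, and 1.99%, 2.48% and 2.34% in T cells. Pafah1b3 and Akap12 passed whichever library was left out. Akap12 missed the threshold among cells with at most 5% mitochondrial UMIs (adjusted p = 0.101, edgeR).

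Fam129c, a gene of the Niban family expressed in B cells, had 30.4 CPM in aged+AA, 48.5 CPM in aged and 76.0 CPM in young lambda cells, against 19.0, 26.9 and 25.8 CPM in kappa cells. The lambda level was higher in every library, with its ratio running from 1.60 (1.06 to 2.34) in aged+AA and 1.80 (1.36 to 2.37) in aged to 2.95 (2.04 to 4.16) in young cells. The log2 fold change was 0.98 (SE 0.162, edgeR adjusted p = 0.000574), and without the young library the adjusted p was 0.109. Hdac9, a class IIa histone deacetylase, had 31.4, 29.3 and 20.4 CPM in lambda and 15.4, 15.4 and 7.91 CPM in kappa cells (log2 fold change 1.01, edgeR adjusted p = 0.00726). It missed the threshold without the young or without the aged library (adjusted p = 0.0833 in each, edgeR). Cd24a, a surface protein high on immature B cells, had 251, 215 and 343 CPM in lambda and 189, 177 and 277 CPM in kappa cells. Its log2 fold change was 0.31 (edgeR adjusted p = 0.0255), and it missed the threshold when any library was left out (adjusted p = 0.0647 without young, 0.101 without aged and 0.15 without aged+AA). Gm8369 was the last of the 8, with a log2 fold change of 0.25 (edgeR adjusted p = 0.0433), and 0.527 without the young library.

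Cd24a was the only called member of the transitional B-cell list, of which 7 genes were tested and 6 had a log2 fold change above 0 (median 0.31). Sox4, a factor of early B cells, had 32.4, 14.6 and 27.8 CPM in lambda and 6.15, 12.7 and 18.9 CPM in kappa cells (aged+AA, aged, young), higher in each library but far more so in aged+AA cells (edgeR adjusted p = 0.133). Vpreb3, which binds light chains on their way to assembly, had 276, 345 and 352 CPM in lambda and 239, 286 and 319 CPM in kappa cells. Its log2 fold change was 0.19 and did not pass (edgeR adjusted p = 0.366). After thinning, Vpreb3 was seen in 22.7%, 30.5% and 30.3% of lambda, 21.6%, 23.7% and 24.2% of kappa, and 0.181%, 0.0953% and 0.115% of T cells. Without thinning the lambda shares were 50.8%, 57.8% and 54.9%. Rag1, the recombinase, was too rare to be compared.

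The plasma cell list holds genes of antibody secretion. Of its 9 tested genes, 8 had a log2 fold change above 0 and none passed (median 0.24). Hsp90b1, a chaperone of the endoplasmic reticulum, had 326, 325 and 424 CPM in lambda and 268, 295 and 312 CPM in kappa cells (edgeR adjusted p = 0.0881). Mzb1, a cofactor of antibody assembly, had 350.4, 326 and 329.9 CPM in lambda and 312, 259 and 273 CPM in kappa cells (edgeR adjusted p = 0.133). Xbp1, the factor that drives secretion, had 40.5, 43.9 and 37.1 CPM in lambda and 36.4, 44.1 and 25.5 CPM in kappa cells. With at most 5 UMIs of other cells' markers and at most 5% haemoglobin UMIs, Hsp90b1 (adjusted p = 0.00378), Mzb1 (0.00737) and Sox4 (0.00275) passed edgeR's test as well. Their log2 fold changes hardly moved, at 0.26, 0.25 and 1.05 against 0.26, 0.24 and 1.05 without these limits. Calls rose over all genes in that setting, to 52 from 30.

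Of the 10 MHC class II genes, which present antigen to T cells, 1 passed the test, H2-Ab1, lower in lambda cells. None had a log2 fold change above 0 (median -0.10), and none passed without the young library, with at most 5% mitochondrial UMIs, at a light-chain ratio of 4 or by DESeq2. A lean to lower values was not particular to this list, since the heat shock list had 1 of 11 above 0 (median -0.12). The transitional and plasma cell lists leaned the other way. The share of all tested genes above 0 is not given, so the sign counts of all these lists lack a baseline. H2-Ab1, a beta chain of MHC class II, had 3786, 2950 and 3051 CPM in lambda and 3929, 3122 and 3840 CPM in kappa cells of the aged+AA, aged and young libraries. Its ratio was 0.964 (0.932 to 0.996) in aged+AA, 0.945 (0.914 to 0.977) in aged and 0.795 (0.756 to 0.835) in young cells, so the young library carried most of the difference. The log2 fold change was -0.17 (SE 0.0363, edgeR adjusted p = 0.0191), and without the young library the adjusted p was 0.522. H2-Aa (log2 fold change -0.13, adjusted p = 0.0517) and Cd74 (-0.08, adjusted p = 0.301) did not pass edgeR's test. With at most 5% haemoglobin UMIs 3 of the 10 passed, and 5 with that limit and at most 5 UMIs of other cells' markers, all lower. The list medians were then -0.11 and -0.13, and calls over all genes were 35 and 52, against 30 without these limits.

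**Figure D4:**
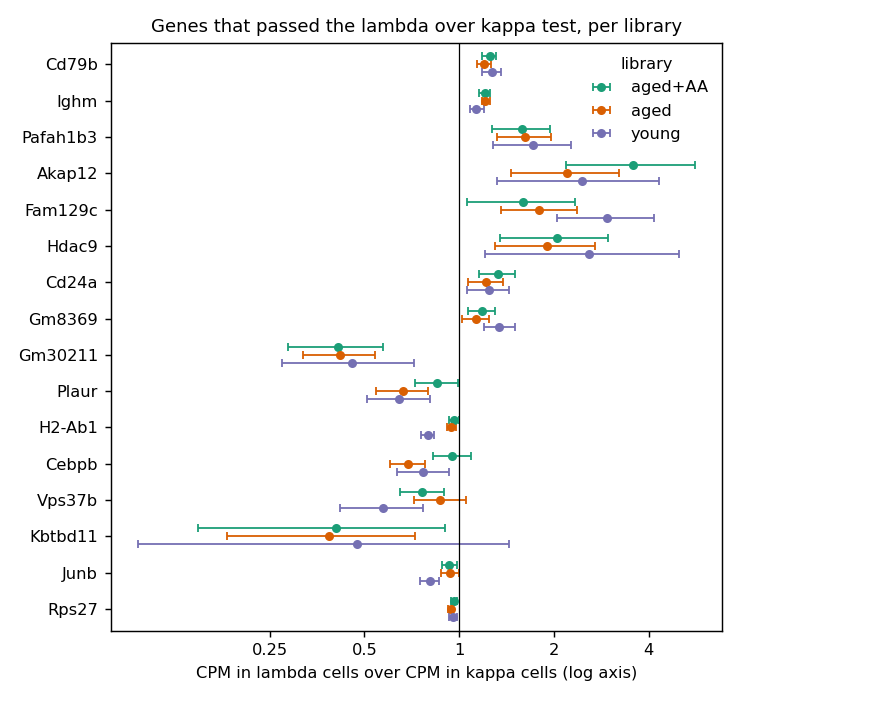
Ratio of CPM in lambda over kappa cells (log axis) for the called genes other than those of the rule, the Iglv segments and 8 genes of myeloid and cytotoxic cells, in the aged+AA, aged and young libraries. Bars are 95% exact intervals for counting error; Akap12 lay at 3.56, 2.20 and 2.46, and Gm30211 at 0.412, 0.419 and 0.457, while Cd79b lay at 1.25, 1.20 and 1.27.

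A non-coding RNA that overlaps Igkc was also lower in lambda cells. Gm30211 had 36.5 CPM in aged+AA, 47.7 CPM in aged and 35.2 CPM in young lambda cells, against 88.6, 114 and 77.1 CPM in kappa cells. Its log2 fold change was -1.26 (SE 0.123, edgeR adjusted p = 1.48e-08). It is annotated as a lincRNA at chr6:70719074-70740554 on the plus strand of GRCm38, and Igkc lies inside it on the same strand at chr6:70726435-70726966. Reads of the overlapping genes may have been divided between them, so this count is uncertain and may hold Igkc, a gene of the rule. Its test is therefore given no weight. In the cells with lambda at least 4 times kappa, Gm30211 had 13.5, 15.7 and 6.52 CPM. Cells with kappa at least 4 times lambda had 89.2, 108 and 71.0 CPM, but this ratio again uses Igkc.

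Of the other lower genes, 8 are known from myeloid or cytotoxic cells. The neutrophil granule genes Ngp (log2 fold change -5.02, edgeR adjusted p = 8.00e-12) and Camp (-3.62, adjusted p = 9.98e-09) had 0, 4 and 0 and 2, 6 and 0 UMIs in lambda cells. In kappa cells 1 aged+AA barcode held 143 of 153 Ngp UMIs, and 1 aged barcode held 421 of 1129. Lyz2 was spread more widely, with UMIs in 1152 aged kappa cells (37.7%) and at most 3.93% of them in 1 cell. Lyz2 (-1.44), which passed whichever library was left out, Ccl4 (-1.70), Lcn2 (-1.58), S100a4 (-0.79), Tyrobp (-0.52) and Chil3 (-0.89) completed this group, and Lcn2 was lower in only 1 of the 3 libraries. None of the 8 passed DESeq2's test. With at most 5 UMIs of other cells' markers and at most 5% haemoglobin UMIs, Ngp, Camp, Lcn2 and Chil3 were not tested, Ccl4 passed (adjusted p = 3.94e-05, edgeR), and Lyz2 (0.809), S100a4 (0.861) and Tyrobp (0.972) did not. Without the young library S100a4 (edgeR adjusted p = 0.0647), Tyrobp (0.122) and Chil3 (0.121) missed the threshold. Without the aged library Ccl4 (edgeR adjusted p = 0.491), Lcn2 (0.999), S100a4 (0.447), Tyrobp (0.876) and Chil3 (0.876) missed the threshold, and Ngp and Camp were not tested. The remaining lower genes were Plaur, the urokinase receptor (-0.48), the factor Cebpb (-0.36), the sorting protein Vps37b (-0.42), Kbtbd11 (-1.32), Junb of the AP-1 family (-0.19) and the ribosomal gene Rps27 (-0.09). All of these 6 missed the threshold when the young library was left out, with edgeR adjusted p of 0.0647 for Plaur, 0.209 for Cebpb, 0.203 for Vps37b, 0.122 for Kbtbd11, 0.574 for Junb and 0.0965 for Rps27. Without the aged library 5 of them missed it, with 0.121 for Plaur, 0.876 for Cebpb, 0.575 for Kbtbd11, 0.0572 for Junb and 0.888 for Rps27. Without the aged+AA library Vps37b (0.103), Kbtbd11 (0.0913) and Rps27 (0.164) missed it.

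Lambda cells of the aged library were compared with those of the young library, both from mice on PBS. An effect of age apart from other differences between these libraries was not tested. Genes with at least 30 UMIs over the 3 lambda sums were compared as ratios of CPM; of 6836 such genes, 665 (9.73%) were at least 2-fold higher and 175 (2.56%) at least 2-fold lower in aged cells, 12.3% either way. The median gene had a log2 ratio of 0.13, and 0.15 in kappa cells, and list values below are relative to it. When CPM left out immunoglobulin, mitochondrial and ribosomal genes the median was -0.04, and 471 genes (6.89%) were higher and 312 (4.56%) lower.

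The genes that ranked first as lower in aged lambda cells included Dusp2, the Gadd45 genes, Id3 and Tsc22d3. Dusp2, a phosphatase induced on activation, had 216 CPM in aged and 739.6 CPM in young cells, a ratio of 0.293 (0.25 to 0.342). Gadd45b, Gadd45g and Gadd45a, stress sensors of a single family, had ratios of 0.273 (0.211 to 0.353), 0.288 (0.197 to 0.420) and 0.328 (0.243 to 0.442). Id3, an inhibitor of E proteins, had 130.1 CPM in aged and 380 CPM in young cells (ratio 0.342, 0.278 to 0.422). Tsc22d3, a glucocorticoid-induced gene, had 665 CPM in aged and 1709 CPM in young cells (ratio 0.389, 0.354 to 0.428). AY036118 had 839 CPM in aged and 3442 CPM in young cells (ratio 0.244, 0.226 to 0.263). Kappa cells had like ratios, 0.278 for Dusp2, 0.241 for Gadd45b, 0.282 for Gadd45g, 0.370 for Gadd45a, 0.304 for Id3 and 0.376 for Tsc22d3. The activation and germinal centre list had 5 of 10 genes above the all-gene median (list median -0.06). Past 2-fold higher was 1 and past 2-fold lower was 1, against 9.73% and 2.56% of all genes. The list median was 0.72 with at most 5% mitochondrial UMIs.

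Of the immediate early list, genes induced within minutes of a stimulus, 18 were measured and 2, Egr3 and Nr4a1, lay above the all-gene median. Past 2-fold lower were 3, against 2.56% of all genes, and past 2-fold higher was 1, against 9.73%. The list median was -0.74 relative to all genes. Junb had 709 CPM in aged and 1498 CPM in young lambda cells (ratio 0.473, 0.430 to 0.521), Jund 1679 and 2821 CPM (0.595, 0.557 to 0.636), Btg1 1474 and 2252 CPM (0.655, 0.609 to 0.704) and Btg2 306 and 541 CPM (0.565, 0.484 to 0.659). The receptor-induced Nr4a1 went the other way, at 82.4 CPM in aged and 31.5 CPM in young cells (2.61, 1.56 to 4.65). The heat shock list had 1 of 9 measured genes above the all-gene median (list median -0.54), and Hspa8 had 591 CPM in aged and 927 CPM in young cells. The mitochondrial share moved with these genes; among cells with at most 5% mitochondrial UMIs the list medians were -0.65 and -0.72.

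Genes higher in aged lambda cells by the same rule were those of other blood cells. S100a9 and S100a8, the calprotectin genes of neutrophils, had 829 and 775 UMIs in aged cells, against 1 and 1 UMI in young cells. Lyz2, lysozyme of myeloid cells, had 530 UMIs in aged and 1 in young cells. The ratio was 344 (61.6 to 13617) for S100a9, 322 (57.6 to 12731) for S100a8 and 220.2 (39.3 to 8712) for Lyz2. Fcer1g (114, 20.3 to 4528) and Ccl5 (48.0, 13.1 to 399) followed. Retnlg, Il1b and Ifitm2 had no UMI in young lambda cells and were at least 39.0-fold, 12.2-fold and 10.7-fold higher in aged cells against a floor of 3 counts in the young sum. These UMIs were uneven over cells: 1 aged barcode held 281 of the 829 S100a9 UMIs, and 1 aged barcode held 119 of the 231 Ccl5 UMIs. S100a9 was also in 39.3% of aged T cells, against 1.57% of young T cells, and at 4070 CPM in aged and 337 CPM in young free RNA. The part of free RNA and doublets in these 8 values was not tested.

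The B identity list was divided between aged and young lambda cells, 14 of its 25 members lying above the all-gene median (list median 0.14). Past 2-fold higher were 2, Cd22 and Pou2f2, not a larger share than the 9.73% of all genes. Cd22, a restraint on receptor signalling, had 215 CPM in aged and 85.3 CPM in young cells (2.52, 1.84 to 3.52). Pou2f2, which activates immunoglobulin genes, had 372 CPM in aged and 182 CPM in young cells (2.05, 1.64 to 2.57). Pax5 had 328 CPM in aged and 208 CPM in young cells (1.58, 1.28 to 1.96), and Syk, a kinase of the receptor, 480.5 and 302 CPM (1.59, 1.34 to 1.90). Ebf1 had 1623 CPM in aged and 1944 CPM in young cells (0.835, 0.775 to 0.900), and Fcmr (0.668, 0.592 to 0.755) and Cd72 (0.652, 0.517 to 0.824) were also below. Il4ra (2.66, 1.59 to 4.74) and Icosl (3.67, 1.58 to 10.4) were highest in the follicular list, and Klf2, a factor that holds B cells in the circulation, had 1373 CPM in aged and 2428 CPM in young cells (0.565, 0.526 to 0.608). Ciita, the master regulator of MHC class II, had 185 CPM in aged and 77.9 CPM in young cells (2.37, 1.70 to 3.38), while Cd74 had 11957 and 13483 CPM (0.887, 0.862 to 0.912). Kappa cells again had like ratios, 2.18 for Cd22, 1.91 for Pou2f2, 1.77 for Pax5, 1.54 for Syk and 1.84 for Ciita.

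Lambda cells of the aged+AA library were also compared with those of the aged library. An effect of AA apart from other differences between these libraries was not tested. This pair shares the aged library with the comparison above, so a low value there lowers one ratio and raises the other. At least 2-fold higher in aged+AA cells were 103 of 6836 genes (1.51%), and at least 2-fold lower were 205 (3.00%), or 4.51% either way. The median gene had a log2 ratio of 0.01. When CPM left out immunoglobulin, mitochondrial and ribosomal genes it was 0.13, and 186 genes (2.72%) were higher and 148 (2.17%) lower.

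The genes that ranked first as higher in aged+AA lambda cells included Junb, Jun, Fos, Cd69, Gem and Pim3, and the activation and germinal centre list had 7 of 10 above the all-gene median (list median 0.50). Junb had 1431 CPM in aged+AA, 709 CPM in aged and 1498 CPM in young cells, and its aged+AA over aged ratio was 2.02 (1.86 to 2.19). Jun had 352, 161 and 261 CPM (2.19, 1.84 to 2.61) and Fos, its partner in AP-1, 438, 206 and 285 CPM (2.13, 1.83 to 2.49). The aged library had the lowest value of all 3 genes. Cd69, an early activation protein that holds cells in tissue, had 357, 177 and 428 CPM (2.02, 1.70 to 2.39). Gem, a small GTPase, had 80.0, 29.3 and 68.6 CPM (2.73, 1.83 to 4.14), and Pim3, a kinase, 100.3 CPM in aged+AA and 39.3 CPM in aged cells (2.55, 1.80 to 3.65). Kappa cells had ratios of 2.03 for Junb, 2.50 for Jun, 1.95 for Fos, 2.10 for Cd69, 1.87 for Gem and 1.88 for Pim3. After thinning, Junb was seen in 69.1% of aged+AA, 38.2% of aged and 72.1% of young lambda cells, and without thinning in 95.7% of aged+AA, 79.1% of aged and all 122 young cells. T cells, which express it too, had thinned shares of 64.9%, 56.4% and 62.8%.

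Over the immediate early list, 13 of 18 genes lay above the all-gene median in aged+AA over aged cells (list median 0.55). Past 2-fold higher were 3, against 1.51% of all genes, and past 2-fold lower were 2, Egr1 and Atf3, against 3.00%. Egr1, a zinc finger factor, had 23.3 CPM in aged+AA, 51.6 CPM in aged and 48.2 CPM in young cells (0.451, 0.268 to 0.735). The heat shock list had 9 of 9 above it (median 0.40), and Hsp90aa1 had 357, 237 and 424 CPM (1.51, 1.29 to 1.76). Cxcl2, a chemokine of myeloid cells, was also named as higher, with 86 UMIs in aged+AA and 22 in aged cells (5.14, 3.19 to 8.63). Only 3 aged+AA cells held those UMIs, 54 of them in 1 cell, and among cells with at most 5 UMIs of other cells' markers and at most 5% haemoglobin UMIs its log2 ratio was -2.94.

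MHC class II genes were higher in aged+AA lambda cells as a group, with 9 of 10 above the all-gene median (list median 0.43) and none past 2-fold. Cd74, the invariant chain, had 17951 CPM in aged+AA, 11957 CPM in aged and 13483 CPM in young cells, an aged+AA over aged ratio of 1.5 (1.47 to 1.53). H2-Aa had 3995, 2937 and 3413 CPM (1.36, 1.30 to 1.42), H2-Ab1 3786, 2950 and 3051 CPM (1.28, 1.23 to 1.34) and H2-Eb1 4128, 3306 and 3190 CPM (1.25, 1.20 to 1.30). Ciita was the exception, at 121, 185 and 77.9 CPM (0.652, 0.519 to 0.816). Haemoglobin, at 2.64% of UMIs in aged+AA and 11.9% in aged cells, enters these CPM. Among cells with at most 5% haemoglobin UMIs the list median was 0.43. That median is relative to all genes, so scaling by haemoglobin cancels in it and it cannot check the CPM ratios. The all-gene log2 median itself was -0.12 under that limit, against 0.01 without it. The kappa ratios were 1.42 for Cd74, 1.37 for H2-Aa, 1.26 for H2-Ab1, 1.19 for H2-Eb1 and 0.836 for Ciita.

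**Figure D5:**
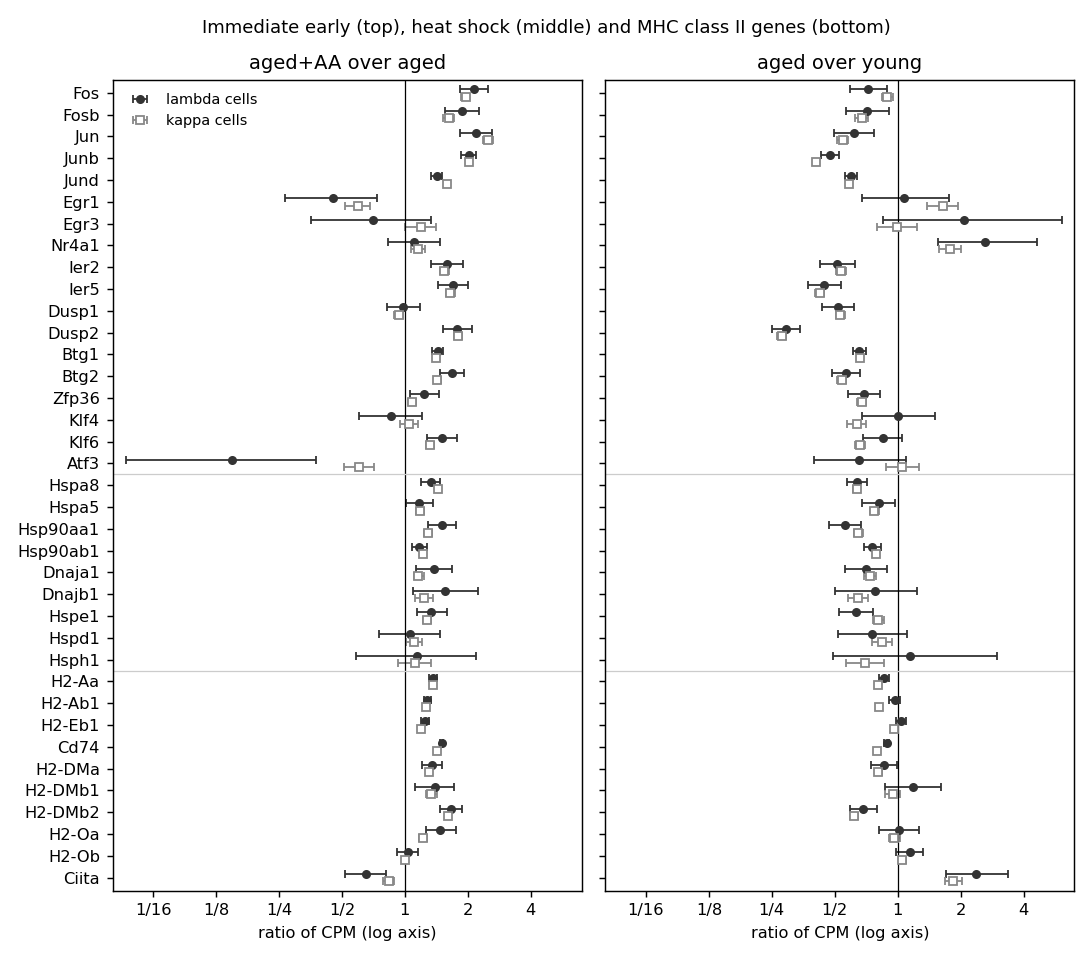
Ratio of CPM between libraries (log axis) in lambda cells (filled circles) and kappa cells (open squares) for every measured gene of the immediate early, heat shock and MHC class II lists, aged+AA over aged at left and aged over young at right. Bars are 95% exact intervals for counting error; Junb lay at 2.02 (left) and 0.473 (right) in lambda cells, and the 2 classes lay close together for most genes.

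Genes lower in aged+AA than in aged lambda cells by the rule were again those of other cells. Lyz2 had 10 UMIs in aged+AA and 530 in aged cells (0.0248, 0.0118 to 0.0460), Fcer1g 9 and 275 (0.0430), Gzma 4 and 147 (0.0358), S100a4 4 and 99 (0.0531) and Ifitm3 22 and 310 (0.0933). Apoc2 had 1 and 56 UMIs (0.0235, 0.000584 to 0.136) and Ms4a6c 5 and 81 (0.0812). Chil3 had none in aged+AA and 58 in aged cells, at least 14.7-fold lower against a floor of 3 counts. Single cells weighed on these sums, 1 aged barcode holding 247 of the Lyz2 UMIs and another 93 of the Gzma UMIs. Lyz2 in free RNA was at 235 CPM in the aged+AA and 3691 CPM in the aged library, and its part in the ratios was not tested.

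The list of B-1 cell genes lay farther from the all-gene median in aged+AA over aged cells than the lists that follow. Of its 6 measured genes 1 lay above that median (list median -1.22). Past 2-fold lower were 4 of them, against 3.00% of all genes. In aged over young cells 3 of 6 lay above it (list median 0.77), all past 2-fold higher, against 9.73% of all genes. The log2 medians in kappa cells, not relative to all genes, were -1.49 and 1.26. The part of free RNA and doublets in the values of the B-1 list was not tested. Among B identity genes 16 of 25 lay above the all-gene median in aged+AA over aged cells (list median 0.18), and Fcmr, the receptor for IgM, had 909, 537 and 804 CPM in aged+AA, aged and young cells (1.69, 1.53 to 1.87). Klf2 had 2357, 1373 and 2428 CPM (1.72, 1.61 to 1.83), and the homing and egress list a median of 0.27. In aged over young cells 1 of 5 measured genes of the transitional list lay above the all-gene median (list median -0.79). In aged+AA over aged cells 2 of 5 did (list median -0.32). Plac8 of the transitional list had 424, 583 and 923 CPM, lowest in aged+AA cells, with ratios of 0.728 (0.645 to 0.821) for aged+AA over aged and 0.631 (0.563 to 0.708) for aged over young. The interferon response list had 5 of 18 genes above the all-gene median (list median -0.19), and Ifi27l2a, an interferon-induced gene, had 748, 900.1 and 754 CPM (0.831, 0.757 to 0.912). The BCL2 family of survival genes had 5 of 11 above it (median -0.01), Mcl1 having 431, 427 and 428 CPM.

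The list of ascorbate genes held carriers, ascorbate-dependent dioxygenases and Myh9, the myosin named in the series title. In aged+AA over aged lambda cells 6 of 20 measured genes lay above the all-gene median (list median -0.12), and in aged over young cells 11 of 20 (0.15). Myh9 had 209 CPM in aged+AA, 261 CPM in aged and 171 CPM in young lambda cells, with ratios of 0.799 (0.669 to 0.953) for aged+AA over aged and 1.53 (1.21 to 1.95) for aged over young. Tet3, a dioxygenase that oxidises methylated cytosine, had 37.5, 61.6 and 14.8 CPM (0.608, 0.400 to 0.909, and 4.15, 2.01 to 9.95), and Tet2 had 47.6, 46.2 and 44.5 CPM. Kappa cells had ratios of 0.763 and 1.57 for Myh9 and of 0.624 and 2.67 for Tet3.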

How the data were processed

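Peripheral blood mononuclear cells were profiled with the 10x 3' kit, 1 library per group. The authors deposited raw UMI count matrices, not normalized; per the file headers Cell Ranger wrote them, and mm10 is the build listed in the submitters' processing notes. All barcodes were read from these counts, and the limits on cells, the gate and the light-chain rule of the opening were applied to each. The members, gene lists and tests were chosen with earlier results of these data known.

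Doublets were predicted with Scrublet (scanpy 1.11.5) and kept, their removal being an alternative. Free RNA was taken from the barcodes ranked 45001 to 90000 by UMIs, and its share in cells was estimated from haemoglobin. For lambda against kappa cells, the counts of each class in each library were added up and tested with edgeR 4.0.16 in R 4.3.3 (quasi-likelihood, TMM, filterByExpr, Benjamini-Hochberg), with the library as a block because both classes come from the same sample; DESeq2 1.42.0 was an alternative. Between libraries, ratios of CPM were given for genes with at least 30 counts, with exact conditional binomial intervals and no test. Log2 ratios, list medians and the numbers of genes past 2-fold used counts with 0.5 added to each gene. Where a named gene had a count of 0, its fold was bounded against a floor of 3 counts.

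Named genes were those passing the class test, ranked by adjusted p, up to 12 each way. Between libraries they were the 8 genes each way, with at least 50 counts, whose interval bound lay farthest from 1, plus up to 4 most counted genes of each list. Called genes beyond the first 12, and Pax5, Syk, Cd72, Nr4a1, Egr1, Atf3, Ciita, Il4ra, Icosl, Tet2, Tet3, Xbp1 and Sox4 where the list rule did not reach them, were chosen after their values were seen. Some genes that the rule named are not reported here. Alternatives covered the mitochondrial, depth, doublet, ratio, filter, scaling, tool and block settings, and leaving out each library; limits on haemoglobin and on other cells' markers were added after seeing the data. On simulated counts for lambda over kappa (9641 genes), edgeR recovered 100% of genes changed 2-fold or 4-fold up, 86.0% of those changed to 0.5 and 100% of those changed to 0.25. The spread of these counts was assumed. Changes smaller than 2-fold and changes in genes with few lambda UMIs were not simulated, so these rates do not cover them. Python 3.11.15, numpy 2.4.6, scipy 1.17.1, pandas 2.3.3 and matplotlib 3.10.9 were used.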

Additional observations from a re-analysis of the deposited data

How the results depend on the processing

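The aged library had the highest lambda share in every setting tried; thinning to 1000 UMIs moved the shares to 8.51% in aged+AA, 13.1% in aged and 9.71% in young cells. As a share of all cells, the aged over young ratio of lambda cells was 2.49. Among aged cells with lambda at least 4 times kappa, Iglc1 led in 48.7%. In the class test, genes higher in lambda cells numbered 8 with at most 5% mitochondrial UMIs, 21 without predicted doublets, 31 with at most 5 UMIs of other cells' markers and at most 5% haemoglobin UMIs together (the joint limit) and 7 without immunoglobulin genes. Genes lower numbered 10 with a light-chain ratio of 4, 2 by DESeq2 and 56 with no filter on low counts. Without the library as a block 4 were higher and 1 was lower. Leaving out a library gave 9 to 19 higher and 9 to 46 lower. No paired analysis was possible between libraries because each group is 1 library. For aged over young, genes past 2-fold numbered 1029 higher and 293 lower with at most 5% mitochondrial UMIs, 177 and 56 with at least 100 counts, and 312 lower with rescaled CPM. For aged+AA over aged, 60 were higher with at most 5% haemoglobin UMIs, 67 under the joint limit, 186 with rescaled CPM, and 17 higher and 34 lower with at least 100 counts. List medians changed sign for aged over young in the transitional (0.09) and activation (0.72) lists with at most 5% mitochondrial UMIs. The interferon list did so at 0.24 in that setting, 0.22 with a ratio of 4, 0.01 without doublets, 0.19 with low haemoglobin, 0.05 under the joint limit, 0.03 with at least 100 counts and 0.00 with free RNA subtracted. For aged+AA over aged they did in the transitional list (0.04 with a ratio of 4, 0.03 with low haemoglobin), the follicular list (-0.06 under the joint limit) and, as a single gene, Cxcl2 (-2.94 under the joint limit). The cause of these changes was not tested. The 122 young lambda cells limit all rare genes.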
